A study of Danio rerio with 24 samples.

Results

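Livers of untrained male zebrafish were compared after overfeeding and after normal feeding. The comparison used 6 of the 24 fish of the study, chosen by the group and sex in the sample labels, namely the 3 OF-control males (replicates 1, 2 and 3) and the 3 NF-control males (replicates 4, 5 and 6). All fish were adult ABTL zebrafish, at least 6 months old, kept at 28 °C with 13 h of light and 11 h of dark. Normal feeding (NF) meant 0.75 mL of living shrimp per fish and overfeeding (OF) meant 9 mL, given in 3 meals of 3 mL. Both also received 2 spoons of the dry feed SDS 400 per tank. Feeding lasted 8 weeks, and the fish were fasted overnight before the livers were taken. The control groups did not swim in a tunnel, while the NF-training and OF-training groups completed 20 sessions. Each of the 4 groups held 3 females and 3 males.

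The liver takes up nutrients after a meal and stores or exports them as glycogen and lipid. Between meals it oxidises fatty acids in the mitochondria, where the citric acid (TCA) cycle feeds electrons into the respiratory chain. The chain and the ATP synthase together are the machinery of oxidative phosphorylation (OXPHOS), and their subunits are encoded partly by the nucleus and partly by the mitochondrion. Livers of male zebrafish make almost no vitellogenin, the egg yolk protein that dominates the RNA of the female liver, so more reads are left for other genes.

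The 6 livers yielded between 20679862 and 21158766 estimated counts, which is within the range of all 24 fish (19315642 to 21399321). Values are given as CPM, that is counts per 1e+06 of the library total multiplied by the TMM normalisation factor. This factor was 1.53 to 2.15 in the 6 males, so the CPM of a fish do not add up to 1e+06. Where levels of different genes are set side by side or added up, TPM is given. It is scaled for transcript length to a sum of 1e+06 per fish. Differences were tested with edgeR over 17411 genes, and "passed" means a p under 0.05 after Benjamini-Hochberg adjustment over all of them. A fish was 1 replicate. The fit took in all 24 fish. Its p-values measure the spread between fish of the same group and sex across the study, not among the 6 males alone. Fish were kept 6 per tank, and the tank of each fish is not given in the sources used here. Diet and tank therefore cannot be told apart.

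Markers of liver cells and of neighbouring tissues were examined first. The summed level of 14 hepatocyte markers lay between 202000 and 266000 TPM in the 3 NF-control males and between 220000 and 257000 TPM in the 3 OF-control males, so the groups overlapped and the labelled tissue was present in every fish. NF-control male 4 stood apart from all other males. Its 7 intestine markers summed to 4730 TPM, against 2.7 to 41.6 TPM in the other 11 males. The gut fatty acid carrier FABP2 reached 1910 TPM, the chitinase chia.2 reached 2140 TPM, and villin (VIL1), of the gut brush border, reached 156 TPM in this fish. Its stellate and fibroblast markers summed to 424 TPM, against 53.8 to 99.5 TPM in the other males. That sum came mostly from acta2 (145 TPM) and the TAGLN genes (160 and 46.9 TPM). Among the collagen genes, col1a1a (14.5 TPM) and COL1A2 (3.18 TPM) were close to NF-control male 6 (11.9 and 3.84 TPM). COL6A2 was higher (5.45 against 2.3 TPM), and col6a1 was lower (22.6 against 33 TPM). In this library 106 genes were at least 10-fold above every other male, compared with 0 to 9 genes in each of the other 11. Values below that this fish carries are therefore given without it as well.

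In untrained males, biliary markers separated the groups in their sum and average, and exocrine pancreas markers did so only in their sum. The summed exocrine pancreas level was 843, 721 and 378 TPM in NF-control males 4, 5 and 6 and 319 and 145 TPM in OF-control males 2 and 3, with OF-control male 1 between 319 and 378 TPM. Biliary markers summed to 1010, 883 and 952 TPM in NF-control and 711, 632 and 631 TPM in OF-control. In most fish these sums came mainly from krt8, ANXA4 and krt18a.1. As TPM, krt8 was at 363, 383 and 444 against 316, 302 and 279, and ANXA4 at 241, 194 and 297 against 180, 153 and 154. The groups overlapped for krt18a.1 (135, 283 and 181 against 189, 153 and 179 TPM) and epcam (11, 14.6 and 13.8 against 11.6, 10.5 and 12 TPM). The keratin gene krt4 was at 256 TPM in NF-control male 4, against 7.51 and 15.2 TPM in males 5 and 6. In trained males the biliary sums were 684, 681 and 680 TPM in NF-training and 691, 650 and 642 TPM in OF-training. Both trained groups thus lay within the range of OF-control. The exocrine sum of NF-control male 6 came mostly from the amylase gene amy2al1 at 257 TPM, while its trypsin transcript prss1 was at 17.2 TPM, below all OF-control males (20.7 to 56.4 TPM). Averaged over the 22 exocrine genes on the centred log2 CPM scale, the groups overlapped, with 0.86, 0.74 and -0.69 in NF-control and 0.06, 0.17 and -1.14 in OF-control. On the same scale the 6 biliary genes did not overlap, with 0.3, -0.02 and 0.32 against -0.1, -0.09 and -0.42. Member by member, 2 exocrine genes and 1 biliary gene were lower without overlap (8.09% of all genes tested), 2 of 22 exocrine genes and 0 of 6 biliary genes tested had a log2 fold change above 0, and of these lists 1 gene each had an unadjusted p under 0.05. Without NF-control male 4, 0 of the 6 biliary genes had one. The part of biliary and exocrine cells in the gene values below was not tested. In bulk tissue, fewer cells of a type and less RNA per cell cannot be told apart. Leukocyte markers overlapped when summed, with 147, 310 and 145 TPM in NF-control and 513, 115 and 132 TPM in OF-control. The 513 TPM of OF-control male 1 came mostly from a single MFAP4 gene (ENSDARG00000090557) at 353 TPM, a member of a family of close copies among which reads can be split.

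**Figure D1:**
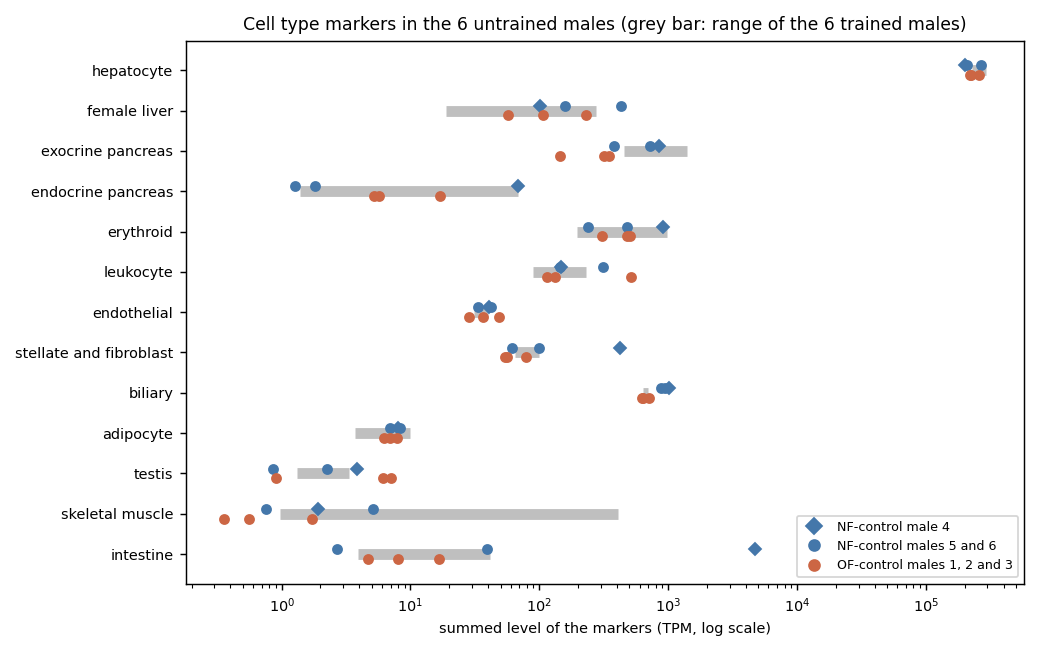
Summed TPM of 13 marker lists (log axis) in each of the 6 untrained males, with the diamond for NF-control male 4 and a grey bar for the range of the 6 trained males. NF-control male 4 lies at 4730 TPM for intestine markers, while the biliary sum is lower in all 3 OF-control males (631 to 711 TPM) than in all 3 NF-control males (883 to 1010 TPM).

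Overfeeding was accompanied by changes of few single genes that passed the test. In untrained males, 4 of 17411 genes passed (0.023%), namely SPOPL and MEN1, which rose (2 genes, 0.0115%), and hmgn1a and map7b, which fell (2 genes, 0.0115%). At an unadjusted p under 0.05 there were 2027 genes (11.6%), 872 higher (5.01%) and 1155 lower (6.63%). DESeq2 called 271 of 17307 genes (1.57%), 105 higher and 166 lower, and these included all 4. A fit of the 6 males alone, of the 12 males alone or with library size alone called 0 genes, and the count ran from 0 to 283 when each of the 6 fish was left out in turn, with 283 without NF-control male 5, 125 without NF-control male 6 and 0 without OF-control male 3. Without NF-control male 4, edgeR called 8 of 17703 genes (0.0452%), and 1497 had an unadjusted p under 0.05 (8.46%).

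SPOPL (ENSDARG00000003974), related to the substrate adaptor SPOP of cullin ubiquitin ligases, had the smallest p. Its level was 7.87, 10.9 and 6.4 CPM in NF-control males 4, 5 and 6 and 30.3, 26.7 and 50.4 CPM in OF-control males 1, 2 and 3. All overfed males were above all normally fed males. SPOPL rose 4.27-fold, from 8.39 ± 2.29 to 35.8 ± 12.8 CPM (SD, n = 3 each), with a log2 fold change of 2.09 (SE 0.28, edgeR adjusted p = 0.00579). Without NF-control male 4 the log2 fold change was 2.05 (adjusted p = 0.0159), and the adjusted p was 0.051 when OF-control male 3, the highest fish, was left out.

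MEN1 (ENSDARG00000089456) encodes menin, a nuclear scaffold protein of histone methyltransferase complexes. It was at 5.84, 9.95 and 3.41 CPM in NF-control and at 38.6, 31.1 and 42.4 CPM in OF-control, again with no overlap. MEN1 rose 5.83-fold, with a log2 fold change of 2.54 (SE 0.39, edgeR adjusted p = 0.0214). The call was lost without NF-control male 4 (adjusted p = 0.0535), without OF-control male 1 (0.0629) and without OF-control male 3 (0.124), while the log2 fold change without NF-control male 4 was 2.48.

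hmgn1a (ENSDARG00000097102), which encodes a nucleosome-binding protein, was at 16, 8.22 and 14.8 CPM in NF-control and at 3.4, 4.26 and 3.87 CPM in OF-control. The overfed males lay close together and below every normally fed male. hmgn1a fell 3.39-fold, with a log2 fold change of -1.76 (SE 0.3, edgeR adjusted p = 0.0492), and its adjusted p was 0.078 without NF-control male 4. Leaving out OF-control male 1, 2 or 3 gave an adjusted p of 0.226, 0.0853 and 0.241. map7b (ENSDARG00000104435), of a family of microtubule-binding proteins, was near the limit of detection, at 2.33, 1.48 and 0.688 CPM against 0.302, 0.216 and 0.187 CPM. map7b fell 6.3-fold (log2 fold change -2.66, SE 0.46, edgeR adjusted p = 0.0492), and without NF-control male 4 its log2 fold change was -2.19 (adjusted p = 0.0934). Its adjusted p was 0.152, 0.156 and 0.306 without OF-control male 1, 2 or 3.

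Further genes whose groups did not overlap had adjusted p-values of 0.089 to 0.0992 with all 6 fish and are given as levels. Among all genes tested, 1622 (9.32%) had every OF-control male above every NF-control male, and 1409 (8.09%) had every one below. FSTL1, a secreted follistatin-like glycoprotein, was at 38.1, 14.4 and 11.9 CPM in NF-control and at 181, 106 and 125 CPM in OF-control. NF-control male 4 was the highest of its group, so that the log2 fold change of FSTL1 was 2.68 with it (edgeR adjusted p = 0.089) and 3.38 without it (adjusted p = 0.0159, a rise that passed). BPNT1, a phosphatase that clears a by-product of sulfation, was at 20.2, 17.4 and 10.8 CPM against 47.6, 37.5 and 113 CPM, and its adjusted p was 0.0701 without NF-control male 4. BPNT1 was higher in every overfed male and did not pass in either fit.

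TAT and ARG2, enzymes of amino acid breakdown, were among the lower genes. Of the 55 genes of that list tested, 7 were higher (9.32% of all genes) and 3 lower (8.09%) without overlap. TAT, tyrosine aminotransferase, opens the breakdown of tyrosine and is known in mammals as a target of glucocorticoids. It was at 277, 1310 and 1380 CPM in NF-control and at 193, 181 and 110 CPM in OF-control. The nearest values of the groups were 277 CPM in NF-control male 4 and 193 CPM in OF-control male 1. The log2 fold change of TAT was -2.62 (SE 0.52, edgeR adjusted p = 0.0991), and without NF-control male 4 TAT fell by 3.06 on the log2 scale (adjusted p = 0.0159). ARG2, the mitochondrial arginase, was at 46.7, 321 and 130 CPM against 35.5, 9.44 and 35.8 CPM. NF-control male 4 was again the fish closest to the overfed males. ARG2 fell by 3.07 on the log2 scale without NF-control male 4 (adjusted p = 0.0159). With that fish the log2 fold change was -2.63 (adjusted p = 0.0992). When each fish was left out in turn, the log2 fold change of ARG2 ran from -3.07 to -1.71. The fall was thus largest without NF-control male 4. The highest normally fed male, at 321 CPM, lay far above the next at 130 CPM.

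The remaining genes called without NF-control male 4 were SLC25A33, a mitochondrial carrier of pyrimidine nucleotides, si:dkey-33b17.2, ADGRL2 and apoa4a. SLC25A33 was at 46.7, 142 and 81.7 CPM in NF-control and at 31.3, 38.7 and 30.8 CPM in OF-control (log2 fold change -1.74, adjusted p = 0.0419 without NF-control male 4 and 0.0992 with it). si:dkey-33b17.2 was at 5.09, 1.08 and 0.419 CPM against 23.1, 33.1 and 20 CPM. Both were on the same side in all fish. ADGRL2, an adhesion G protein-coupled receptor, was at 18.3, 0.0809 and 0.239 CPM in NF-control and at 15.3, 11.4 and 8.3 CPM in OF-control. The apolipoprotein gene apoa4a was at 15, 0 and 0 CPM in NF-control and at 4.61, 5.12 and 2.24 CPM in OF-control. For ADGRL2 and apoa4a, NF-control male 4 was the highest of the 6 fish, and with all fish their adjusted p was 0.813 and 0.958.

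Other genes higher in all overfed males had roles in lipid storage, ketone use and nucleotide and polyamine metabolism. PLIN2, which coats lipid droplets, was at 2.6, 3.18 and 2.18 CPM in NF-control and at 22, 14.2 and 11 CPM in OF-control (log2 fold change 2.56, SE 0.54, edgeR adjusted p = 0.0992). oxct1b, of the enzyme that activates ketone bodies for oxidation, was at 311, 352 and 212 CPM against 554, 573 and 616 CPM. Both genes kept a similar log2 fold change without NF-control male 4, with 2.55 for PLIN2 and 1.04 for oxct1b, and neither passed. SAT1, which acetylates polyamines, was at 2.62, 3.99 and 0.987 CPM against 12.2, 15 and 29.8 CPM. ADSL, of purine synthesis, was at 10.4, 11.3 and 7.72 CPM against 21.8, 16.6 and 26.8 CPM. The list was completed by ASMTL (26.1 to 51.5 against 89.6 to 137 CPM), ube2d1b, a ubiquitin-conjugating enzyme (6.58 to 8.92 against 14.1 to 19.2 CPM), the mitochondrial carrier SLC25A21 (3.53 to 4.23 against 7.39 to 12.7 CPM) and slc47a4, of a family of drug exporters (0.538 to 2.17 against 8.73 to 16.7 CPM).

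Among the 12 lower genes with the smallest p-values, 6 were far higher in NF-control male 4 than in the other fish. In all 6, NF-control males 5 and 6 also lay above every OF-control male, as the rule that named these genes required. The brush border peptidase ace was at 157 CPM in this fish and at 0.16 to 0.449 CPM in the other 5. dpp4, another peptidase of that border, was at 36.5 CPM and at 0.267 to 0.927 CPM, and the chitinase chia.1 was at 457 CPM and at 0 to 0.12 CPM. The same fish was the highest for ITPK1 (25.1 CPM, others 0.453 to 1.05), MAF (16.2 CPM, others 0.373 to 1.16) and NET1 (11 CPM). NET1 was at 2.29 and 3.38 CPM in NF-control males 5 and 6 and at 0.64 to 1.34 CPM in OF-control. Without NF-control male 4, the log2 fold changes of these 6 genes lay between -1.67 (NET1) and -0.62 (ace), and none passed. The other lower genes did not depend on it in this way. FAM20A, related to the secreted FAM20 kinases, was at 22.2, 71.3 and 66.1 CPM in NF-control and at 3.79, 9.38 and 5.07 CPM in OF-control, with a log2 fold change of -3.13 with and -3.5 without NF-control male 4 (edgeR adjusted p = 0.0992 and 0.0934). AP3M1, of a vesicle coat complex, ran from 2.67 to 4.41 CPM against 0.96 to 1.88 CPM, and EPB41L2, of the membrane skeleton, from 4.1 to 9.45 CPM against 1.76 to 3.49 CPM.

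**Figure D2:**
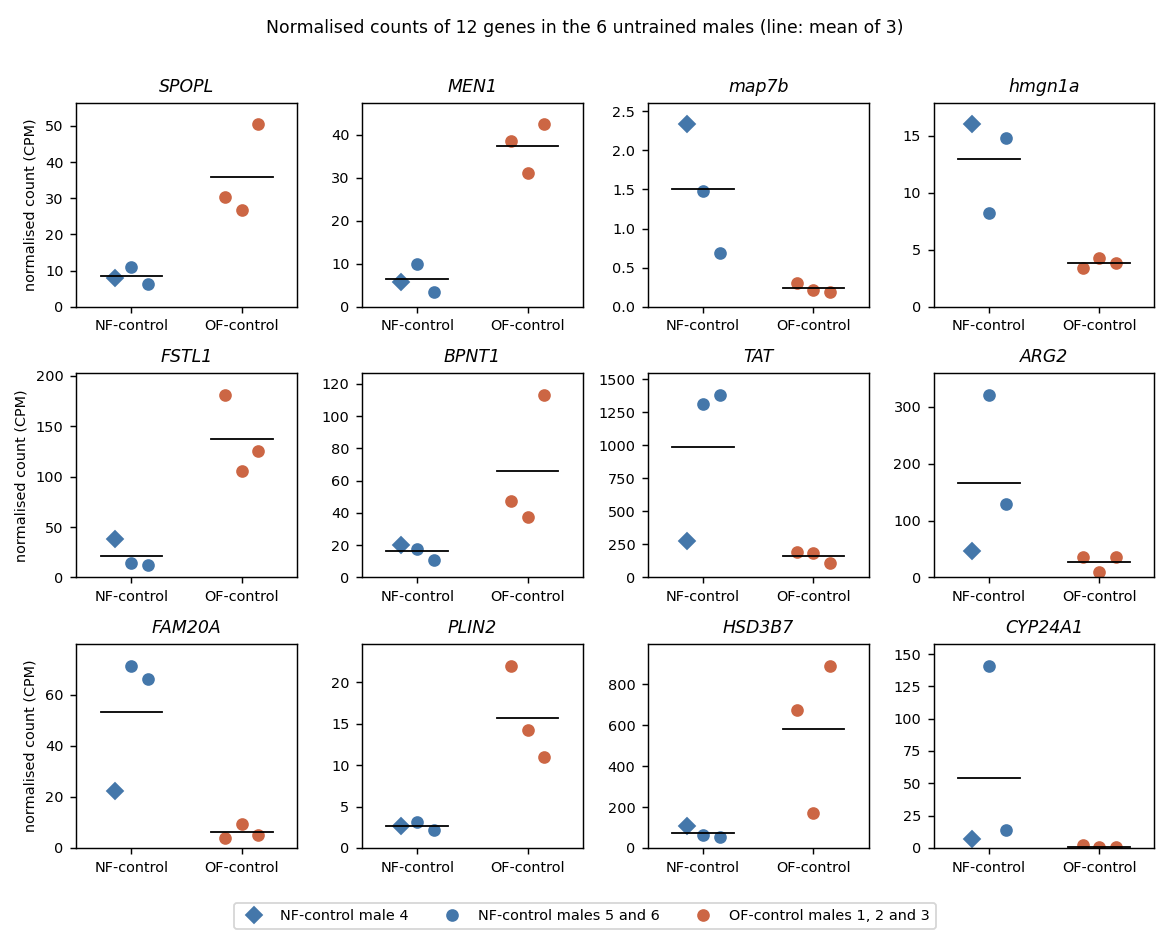
CPM of 12 genes in each NF-control and OF-control male, 1 point per fish, with the diamond for NF-control male 4. Every OF-control male lies above every NF-control male for SPOPL (26.7 to 50.4 against 6.4 to 10.9 CPM) and below every one for hmgn1a (3.4 to 4.26 against 8.22 to 16 CPM).

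Of all lists examined, the one with the most genes separating the groups was that of OXPHOS subunits. This list holds subunits encoded by the nucleus only, and those encoded by the mitochondrion were not examined. Of 95 OXPHOS subunit genes matched in the files, 93 were tested, and 86 of these had a log2 fold change above 0, compared with 49.6% of all genes tested. The median log2 fold change was 0.49, against 0 over all genes. In 68 of the 93 genes every overfed male was above every normally fed male (9.32% of all genes), and in 1 gene every one was below (8.09%). At an unadjusted p under 0.05, 58 were higher (5.01% of all genes) and 2 lower (6.63%), and 0 passed after adjustment over all genes with edgeR. DESeq2 called 15 of them, all higher, against 271 of all 17307 genes (1.57%), of which 105 were higher. Without NF-control male 4 the median was 0.49 again, with 88 of 93 genes above 0 (50.9% of all genes in that fit) and 42 higher at an unadjusted p under 0.05 (4.46% of all genes in that fit). Leaving out any other of the 6 fish gave a median between 0.43 and 0.56.

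The direction was the same in each respiratory complex. All 9 listed nuclear genes of complex III, which passes electrons to cytochrome c, were higher (49.6% of all genes), with a median log2 fold change of 0.72. The groups did not overlap in any of these 9 (9.32% of all genes were higher without overlap). All 20 listed nuclear genes of the ATP synthase were higher, 17 of them without overlap, with a median of 0.5. Of complex I, which takes electrons from NADH, 37 of 39 genes were higher (median 0.47), of complex II 4 of 4 (median 0.47), and of complex IV, which reduces oxygen, 16 of 21 (median 0.42). Without overlap, 29 genes of complex I, 3 of complex II and 10 of complex IV were higher. In complex IV 1 gene was lower without overlap (8.09% of all genes).

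UQCRFS1, the Rieske iron-sulfur protein of complex III, was at 79.4, 80.4 and 66.4 CPM in NF-control and at 142, 135 and 184 CPM in OF-control. This was 2.04-fold (log2 fold change 1.03, SE 0.26, edgeR adjusted p = 0.113), with no overlap. NDUFA10 of complex I was at 25.5, 28.9 and 23.3 CPM against 41.1, 41.7 and 44.1 CPM, a narrow spread within each group (log2 fold change 0.71, SE 0.16, adjusted p = 0.0992). ATP5F1B, the catalytic beta subunit of the ATP synthase, was at 418, 483 and 445 CPM against 656, 806 and 710 CPM (log2 fold change 0.69, SE 0.21, adjusted p = 0.182). UQCRB and UQCRQ, also of complex III, had log2 fold changes of 0.72 and 0.62. Of the most expressed subunits, ATP5F1A had a log2 fold change of 0.46 and atp5mc3b one of 0.13, with overlapping groups in the latter.

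Averaged over the 93 genes after centring each gene over the 6 fish, the OXPHOS level on the log2 CPM scale was -0.2, -0.09 and -0.36 in NF-control males 4, 5 and 6 and 0.14, 0.22 and 0.29 in OF-control males 1, 2 and 3. NF-control male 6 was the lowest fish, and the groups did not overlap. Added up as TPM, the level was 18400, 17500 and 13400 against 19500, 18400 and 21500. This sum is weighted by the most abundant transcripts. It also carries no TMM factor, which was 2.15 in NF-control male 4 and 1.53 in OF-control male 2. On this sum NF-control male 4 and OF-control male 2 were level, so that the separation was smaller than on the CPM scale. Single genes also changed with the scale. UQCRB did not overlap as CPM, but its TPM was 189 in NF-control male 5 and 187 in OF-control male 2. The counts of genes without overlap rest on CPM. The parts of weighting and scaling were not tested.

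The enzymes that supply the chain shared the direction. Of 27 TCA cycle genes tested (28 matched), 22 were higher, with a median log2 fold change of 0.45. In 15 the groups did not overlap, all higher (9.32% of all genes), 11 were higher at an unadjusted p under 0.05 (5.01%), and 0 passed. The fish averages did not overlap, with -0.21, -0.04 and -0.42 in NF-control and 0.16, 0.25 and 0.27 in OF-control. Summed TPM overlapped, with 3820, 4360 and 3570 against 4250, 4060 and 4550. SUCLG2, of succinyl-CoA ligase, was at 219, 283 and 231 CPM in NF-control and at 393, 390 and 481 CPM in OF-control. All overfed males were higher, and SUCLG2 did not pass (edgeR adjusted p = 0.17). MPC2, of the mitochondrial pyruvate carrier, was at 51.9, 71.3 and 13.8 CPM against 118, 97.4 and 116 CPM, with NF-control male 6 far below the rest. pdha1a and SUCLG1 had log2 fold changes of 0.61 and 0.49 without overlap. MDH1, the cytosolic malate dehydrogenase of this list, overlapped between the groups with a log2 fold change of -0.15.

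Most transcripts for building the chain also had a log2 fold change above 0, though some fish overlapped in averages or sums. All 75 genes of mitochondrial ribosomal proteins, which translate the subunits encoded by the mitochondrion, had a log2 fold change above 0, with a median of 0.51. The groups did not overlap in 34 of them (9.32% of all genes), 25 had an unadjusted p under 0.05 (5.01%), and 0 passed. Without NF-control male 4 the median was 0.44 and 12 had an unadjusted p under 0.05 (4.46% of all genes in that fit). Averaged as for OXPHOS, fish were at -0.33, 0.09 and -0.57 in NF-control and at 0.19, 0.23 and 0.4 in OF-control. Summed TPM overlapped, with 1280, 1500 and 810 against 1520, 1340 and 1780. MRPL33 was at 5.79, 6.42 and 3.35 CPM in NF-control and at 9.82, 10.7 and 11 CPM in OF-control (log2 fold change 1.02, SE 0.28, edgeR adjusted p = 0.134). MRPS22, MRPS23, MRPL12 and MRPS15 had 0.73, 0.91, 0.89 and 0.59 without overlap, and the more expressed MRPL38 and mrpl36 had 0.46 and 0.56 with overlap. Of 63 genes of mitochondrial import, biogenesis and carriers tested (70 matched), 55 were higher (median 0.35), 14 were higher without overlap (9.32% of all genes), and 0 passed. CHCHD10 (0.93), TIMM29 (0.8), timm23a (0.78) and tfb2m (0.77) were among the latter, and the abundant carriers VDAC2 (0.25), SLC25A3 (0.34) and SLC25A5 (0.26) were not. The fish averages of this import list overlapped, with -0.25, 0.17 and -0.57 against 0.14, 0.18 and 0.33. Beside these medians, 82 cytosolic ribosomal protein genes tested (83 matched) had a median log2 fold change of 0.03, and 1 of them was without overlap. Their most expressed members, RPL3, RPLP0 and RPS2, had log2 fold changes of 0.02, 0.01 and -0.03. RPL22L1 had 0.77 with overlapping groups. The signs of RPL3 and RPLP0 turned under other scalings.

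**Figure D3:**
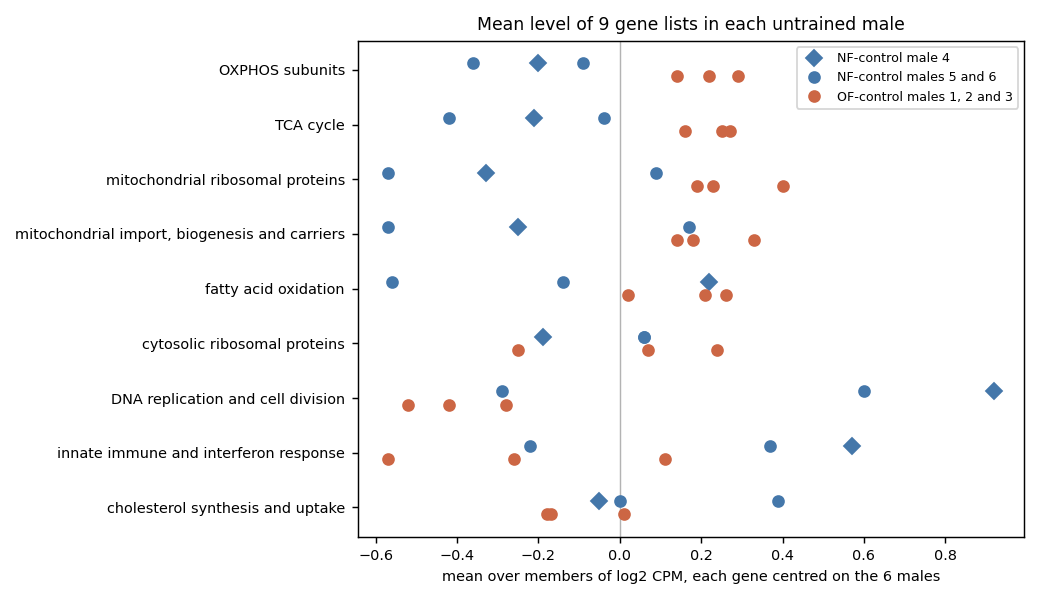
Mean centred log2 CPM of 9 gene lists in each of the 6 untrained males, with the diamond for NF-control male 4. For OXPHOS subunits the 3 OF-control males lie at 0.14 to 0.29 and the 3 NF-control males at -0.36 to -0.09.

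Fatty acid oxidation genes were higher in part. Of 34 genes tested (35 matched), 23 were higher with a median log2 fold change of 0.46, and 13 did not overlap, all of them higher (9.32% of all genes). At an unadjusted p under 0.05, 11 were higher (5.01% of all genes) and 2 lower (6.63%), and 0 passed. The fish averages of the list overlapped, with 0.22, -0.14 and -0.56 in NF-control and 0.02, 0.26 and 0.21 in OF-control. Summed TPM did not, with 3030, 2860 and 1960 against 3060, 3180 and 3790. ETFA, the flavoprotein that hands electrons from fatty acid oxidation to the chain, was at 88, 136 and 73.6 CPM in NF-control and at 184, 177 and 210 CPM in OF-control (log2 fold change 0.94, SE 0.21, edgeR adjusted p = 0.0992). HADHB, of the trifunctional protein, was at 132, 155 and 77.3 CPM against 212, 225 and 311 CPM. Both were higher in every overfed male. CPT1B, which admits fatty acids to the mitochondrion, was at 262, 361 and 3.17 CPM against 474, 514 and 548 CPM. NF-control male 6 was far below the other fish, and the SE of 1.15 was close to the log2 fold change of 1.29. ACAA1 and ACADVL, of peroxisomal and mitochondrial oxidation, had log2 fold changes of 0.62 and 1.01 without overlap, and ACADM one of 0.15 with overlap. ACSL5 was at 72.7 CPM in NF-control male 4 and at 0.0539 to 0.213 CPM in the other 5 fish, with a log2 fold change of -7.2 with and 0.65 without that fish.

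Genes of lipid synthesis lay in both directions. Of 29 genes of fatty acid and triglyceride synthesis tested (32 matched), 20 were higher with a median log2 fold change of 0.26. Without overlap, 2 were higher (9.32% of all genes) and 1 lower (8.09%), which is no more than the share of all genes. Those 3 were PLIN2, given above, ME1 and SREBF1. ME1, the malic enzyme that supplies NADPH, was at 31.8, 60.1 and 9.39 CPM in NF-control and at 81.3, 165 and 109 CPM in OF-control (log2 fold change 1.81, SE 0.57, edgeR adjusted p = 0.199). SREBF1, the transcription factor of lipogenesis, was lower, at 11, 16.7 and 21.9 CPM against 8.73, 6.51 and 8.11 CPM (log2 fold change -1.09, SE 0.38, adjusted p = 0.246). SCD, the fatty acid desaturase, was at 3.3, 0.836 and 488 CPM against 0.412, 10.5 and 1.07 CPM. thrsp, known in mammals as a lipogenic gene responsive to thyroid hormone, was at 36.7, 1.32 and 736 CPM against 11, 53.5 and 28.7 CPM. The high levels of both genes were in NF-control male 6, and the groups overlapped. DGAT2, which completes triglycerides, and ACACA, which makes malonyl-CoA, overlapped as well, with log2 fold changes of 0.17 and -0.18.

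Cholesterol synthesis and uptake had a median log2 fold change of -0.28 over 22 genes tested (25 matched), with 10 higher. In 5 genes every overfed male was lower (8.09% of all genes) and in 2 every one was higher (9.32%). insig1, which retains the sterol sensor in the endoplasmic reticulum, was at 4.32, 12.3 and 8.4 CPM in NF-control and at 2.74, 2.38 and 2.13 CPM in OF-control (log2 fold change -1.78, SE 0.56, edgeR adjusted p = 0.199). STARD4, a sterol carrier, was at 9.34, 12.5 and 11.2 CPM against 20.1, 14.5 and 20 CPM. EBP, of late sterol synthesis, had a log2 fold change of -2.68 at levels under 1 CPM in every fish. The groups overlapped for ldlra (0.57), TM7SF2 (-0.25) and srebf2 (-0.32). The median of this list was 0.01 when NF-control male 6 was left out.

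Carbohydrate genes were mixed. Glycolysis and gluconeogenesis had a median log2 fold change of 0.03 over 27 genes, and without overlap 3 were higher (9.32% of all genes) and 1 lower (8.09%). pck2, the mitochondrial enzyme that opens gluconeogenesis, was at 620, 672 and 482 CPM in NF-control and at 1050, 1010 and 1010 CPM in OF-control (log2 fold change 0.79, SE 0.3, edgeR adjusted p = 0.283). ldhbb, a lactate dehydrogenase subunit, was at 760, 1510 and 456 CPM against 1780, 1600 and 1950 CPM. Both were higher in every overfed male, as was pgam1b (log2 fold change 0.47), while the highly expressed GAPDH (0.29) and fbp1b (0.36) overlapped. LDHA was at 43.4 CPM in NF-control male 4 and at 2.65 to 4.75 CPM in the other fish, and its log2 fold change was -2.5 with and -0.6 without that fish. Of 15 glycogen genes tested, 4 were higher with a median of -0.38, and the median was 0.04 without NF-control male 6. UGP2, which makes the glucose donor of glycogen, was at 86.7, 104 and 267 CPM against 61.3, 110 and 37.5 CPM. PYGL, the liver glycogen phosphorylase, was at 303, 375 and 322 CPM against 540, 823 and 403 CPM, and PHKA2, of its activating kinase, had a log2 fold change of 0.79, both without overlap. The groups overlapped for PHKG2 (1.5), PYGB (-1.44, and -0.66 without NF-control male 4), GYS2 (-0.53) and pgm1 (-0.66).

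Genes that respond to insulin, growth hormone and fasting showed no common direction, with 13 of 24 higher and a median of 0.1. IGFBP3, a carrier of insulin-like growth factors, was at 1.67, 5.23 and 3.8 CPM in NF-control and at 0.933, 1.45 and 1.01 CPM in OF-control (log2 fold change -1.65, SE 0.41, edgeR adjusted p = 0.106). IGF1 was at 17.8, 18.8 and 16.5 CPM against 24.1, 19.8 and 89.6 CPM. The highest IGF1 level was in OF-control male 3, and the other overfed males were just above the normally fed ones. CISH, a feedback inhibitor of growth hormone signalling, was at 1.13, 14.5 and 14.3 CPM against 0.631, 1.57 and 1.76 CPM. PIK3R1 had a log2 fold change of 0.43 without overlap, while IGFALS (0.15), tsc22d3 (0.42) and igfbp1b (-2.96, with 48 CPM in NF-control male 5) overlapped.

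In bile acid metabolism, HSD3B7, an early enzyme of bile acid synthesis, was at 105, 65.3 and 53.7 CPM in NF-control and at 677, 173 and 892 CPM in OF-control. Every overfed male was above every normally fed male, by 7.78-fold in the fit (log2 fold change 2.96, SE 0.67), and HSD3B7 did not pass (edgeR adjusted p = 0.0992, and 0.183 without NF-control male 4). slc51a, a subunit of the organic solute transporter that exports bile acids, was at 105, 149 and 126 CPM against 233, 191 and 268 CPM. It was likewise higher in all overfed males. The exporters ABCB4 and abcb11a were highest in NF-control male 4 (119 and 7.38 CPM), with log2 fold changes of -1.67 and -2.4 with it and -0.24 and 0.87 without it, while abcc2 (0.03) and slco1d1 (0.2) overlapped. Over the 12 genes of the list tested (14 matched), 7 were higher and the median was 0.09.

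Genes of DNA replication and cell division were mostly lower, at low levels. Of 58 genes matched, 44 were tested, 37 of these had a log2 fold change below 0, and the median was -1.06. At an unadjusted p under 0.05, 15 were lower (6.63% of all genes) and 1 higher, and in 9 every overfed male was lower (8.09% of all genes). CCND1, cyclin D1, was at 9.44, 5.85 and 8.88 CPM in NF-control and at 2.85, 4.75 and 2.85 CPM in OF-control (log2 fold change -1.21, SE 0.33, edgeR adjusted p = 0.136). TOP2A, a topoisomerase of dividing cells, was at 1.67, 0.243 and 0.568 CPM against 0.137, 0.0925 and 0.0267 CPM, with a log2 fold change of -3.22 and, without NF-control male 4, of -2.18. MCM10 (-3.85, and -4.37 without NF-control male 4) and plk1 (-2.38 and -1.35) were also mostly under 1 CPM, while RFC3 (0.83) and DUT (0.32) were above 0 with overlap. The counts behind the low values are few. Averaged as for OXPHOS, the fish overlapped, with 0.92, -0.29 and 0.6 in NF-control and -0.28, -0.52 and -0.42 in OF-control. Without NF-control male 4 the median was -0.77 over 46 genes and 2 were lower at an unadjusted p under 0.05 (3.99% of all genes in that fit), and without NF-control male 5 it was -1.66.

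Immune genes were mostly lower in level with all 6 fish in the fit. Of 39 genes of the innate immune and interferon response tested (47 matched), 10 were higher, the median log2 fold change was -0.54 and 9 were lower at an unadjusted p under 0.05 (6.63% of all genes). In 5 genes every overfed male was lower (8.09% of all genes) and in 1 every one was higher (9.32%), and 0 passed. The fish averages of the list overlapped, with 0.57, -0.22 and 0.37 in NF-control and 0.11, -0.26 and -0.57 in OF-control. cd74b, the invariant chain of antigen presentation, was at 72.7, 17.4 and 28.9 CPM in NF-control and at 17.2, 13.2 and 7.74 CPM in OF-control (log2 fold change -1.64, SE 0.49, edgeR adjusted p = 0.166). The log2 fold change was -1.17 for cd74a, -1.89 for mhc2dab, -2.06 for the interferon-induced helicase DHX58, -0.54 for b2m and -0.04 for b2ml. NF-control male 4 was the highest fish for cd74a, cd74b, mhc2dab and b2m. Without it the log2 fold change was -0.58 for cd74a, -0.87 for cd74b, -1.02 for mhc2dab, -1.81 for DHX58, -0.25 for b2m and 0.07 for b2ml. In that fit the median of the list was -0.36, and 2 of 39 genes were lower at an unadjusted p under 0.05, which is near the share of all genes (3.99%). Among leukocyte markers, 10 of 27 were lower without overlap (8.09% of all genes). The part of leukocyte number in the immune values was not tested. Of 33 complement genes tested, 8 were higher (median -0.31), and 3 did not overlap, all lower, near the share of all genes (8.09%). The most expressed were c3a.1 (log2 fold change -0.02), c9 (-0.59) and c3a.2 (-0.83), beside cfd (-1.92, and -0.79 without NF-control male 4) and c3a.5 (2.94).

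**Figure D4:**
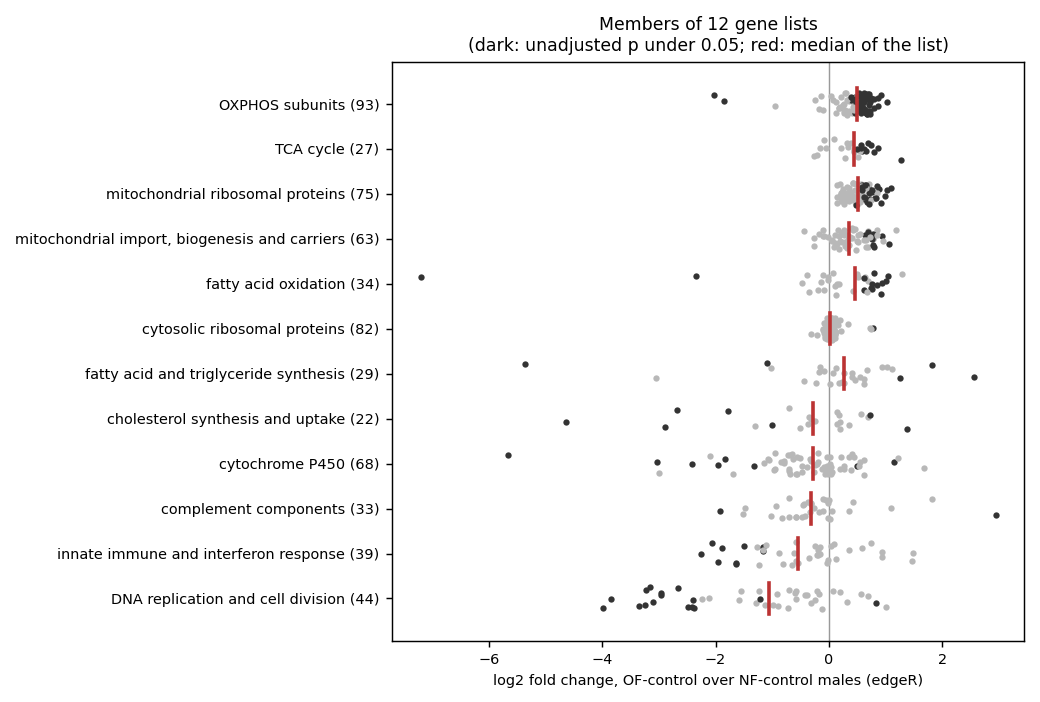
Log2 fold change (OF-control over NF-control) of each tested member of 12 gene lists in untrained males, with dark points for an unadjusted p under 0.05 and a red line for the median of the list. OXPHOS subunits (median 0.49) and mitochondrial ribosomal proteins (median 0.51) lie mostly above 0, and DNA replication genes (median -1.06) mostly below.

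Detoxification and stress genes gave single genes with large differences. CYP24A1, which inactivates vitamin D, was at 6.72, 141 and 13.6 CPM in NF-control and at 2.25, 0.524 and 0.4 CPM in OF-control. Every overfed male was lower, and the spread among normally fed males was wide (log2 fold change -5.66, SE 1.36, edgeR adjusted p = 0.101). Of 68 cytochrome P450 genes tested (86 matched), 22 were higher with a median of -0.29, and without overlap 9 were lower (8.09% of all genes) and 3 higher (9.32%). cyp3c3 (-3.04) and cyp3c4 (-2.41) were highest in NF-control male 4 and had -1.12 and -1.34 without it, cyp3a65 (-0.69) and cyp2aa7 (-1.33) were lower without overlap, and CYP1A1 (-0.65) and cyp2k22 (0.54) overlapped. selenop2, a selenoprotein, was at 92.1, 280 and 364 CPM against 19.3, 33.5 and 47.1 CPM (log2 fold change -2.88, SE 0.83, adjusted p = 0.157). Its relative selenop, at higher levels, was at 1110, 1330 and 1160 CPM against 1630, 2250 and 1490 CPM, so these genes differed in opposite directions. The 33 antioxidant genes had a median of -0.04, with overlapping groups for gpx3 (1.3), gpx4a (-0.04), nfe2l2b (-2.16), CAT (0.16) and gpx1b, which was at 18.8 CPM in NF-control male 4 and under 1 CPM in the others, with -4.06 with and 1.38 without that fish. BAG3, a co-chaperone, was at 9.16, 6.12 and 6.4 CPM against 39.1, 19.2 and 23.4 CPM (log2 fold change 1.91, SE 0.52, adjusted p = 0.13). The 31 chaperone genes tested (32 matched) had a median of 0.17. HSPB8 (0.74) was higher and FKBP4 (-0.94) lower without overlap, and HSP90AB1 (0.21), HSPA8 (0.39) and FKBP5 (0.89, with 8.64 CPM in NF-control male 6) overlapped.

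Counted by groups without overlap, the list of the endoplasmic reticulum (ER) was near the share of all genes in both directions. The 57 genes of translocation, glycosylation and folding had a median log2 fold change of -0.01, with 4 lower (6.63% of all genes) and 0 higher (5.01%) at an unadjusted p under 0.05. Without overlap, 5 were lower (8.09% of all genes) and 4 higher (9.32%), the latter being XBP1, SRPRA, SPCS3 and OSTC with log2 fold changes of 0.21 to 0.38. HSP90B1 was at 95, 111 and 75.8 CPM in NF-control and at 58.1, 43.4 and 40.6 CPM in OF-control (log2 fold change -0.99, SE 0.32, edgeR adjusted p = 0.209). PDIA4, a disulfide isomerase, was at 20, 9.97 and 25.9 CPM against 8.45, 7.74 and 4.77 CPM, and the calcium-binding calr3a was at 89.5, 86.7 and 102 CPM against 59.9, 67.5 and 50.4 CPM. In all of these the groups did not overlap, nor in CALR (log2 fold change -1.02). The more expressed SEC61A1 (-0.34), PDIA3 (-0.15) and P4HB (0.52) overlapped.

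Of 28 clock genes, 6 were lower (8.09% of all genes) and 1 was higher (9.32%) without overlap, and the median was -0.09. rorab, a nuclear receptor of the clock, was at 18.1, 19 and 12.9 CPM in NF-control and at 34.6, 36.9 and 43.3 CPM in OF-control (log2 fold change 1.2, SE 0.3, edgeR adjusted p = 0.113). PER3 was at 94, 89.4 and 177 CPM against 65.4, 66.9 and 77.8 CPM, and tefa, a clock output factor, was at 46.3, 39.9 and 60.9 CPM against 17.3, 25.1 and 25.2 CPM. These clock genes did not pass. CRY2 (-0.73) was lower without overlap, and BHLHE40 (-0.08) and cry3a (0.29) overlapped. The hour at which each liver was taken is not given in the sources used here, and its part was not tested. Amino acid breakdown, to which TAT and ARG2 belong, had 34 of 55 genes higher (62 matched) and a median of 0.09. AHCY (0.42) and got2b (0.68) were higher without overlap, and AMT (0.87), BHMT (0.15) and hpda (-0.15) overlapped.

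To see whether the differences were particular to untrained males, the same contrast was taken in the other fish. In untrained females 0 of 17411 genes passed with edgeR (0%), 831 had an unadjusted p under 0.05 (4.77%), and DESeq2 called 10. The difference between males and females was tested itself, and 0 genes passed (smallest adjusted p = 0.694), with 959 at an unadjusted p under 0.05 (5.51%) and 20 by DESeq2. SPOPL had a log2 fold change of 2.09 in males and 0.11 in females, a difference of 1.98 (SE 0.4, edgeR adjusted p = 0.694). For MEN1 the log2 fold change was 0.12 in females and the difference 2.43 (SE 0.55, adjusted p = 0.694). Neither gene was therefore shown to respond differently by sex after adjustment. In females hmgn1a had a log2 fold change of -0.46 and map7b one of 0. The differences from males were -1.3 and -2.65 and did not pass (edgeR adjusted p = 0.78 and 0.694). Some genes that did not pass with all 6 males kept their direction in untrained females. ARG2 was at 79.1, 71.3 and 76.5 CPM in NF-control females and at 25.1, 21.5 and 24.7 CPM in OF-control females. PLIN2 was at 2.81, 5.12 and 2.77 against 6.91, 16 and 6.54 CPM. Neither passed in females (edgeR adjusted p = 0.824 and 0.978). Others did not, with female log2 fold changes of -0.24 for FSTL1 and -0.3 for BPNT1. The 93 OXPHOS genes had a median log2 fold change of -0.04 in untrained females, with 42 above 0 (49.4% of all genes), and 0 were higher at an unadjusted p under 0.05 (1.97% of all genes). The mitochondrial ribosomal list had a median of 0.11 in females, and DNA replication had -1.44. Cholesterol synthesis and uptake had a median of -0.91 in females, against -0.28 in males, and 17 of 22 genes were below 0. Of these, 10 had an unadjusted p under 0.05 (488 of 17411 for all genes lower). Amino acid breakdown had a median of -0.37 in females, against 0.09 in males. There 44 of 55 genes were below 0, 13 of them at an unadjusted p under 0.05. None of these genes passed.

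In trained males, OF-training against NF-training, 19 genes passed (0.109%), and 769 (4.42%) were under an unadjusted p of 0.05. The 19 included 5 of 8 skeletal muscle markers, all higher, and 5 of 8 female liver markers, all lower. The difference between untrained and trained males gave 0 genes (smallest edgeR adjusted p = 0.0683), 836 at an unadjusted p under 0.05 (4.8%) and 15 by DESeq2. The 93 OXPHOS genes had a median log2 fold change of 0.24 in trained males, with 82 above 0 (52% of all genes), 18 higher without overlap (7.46% of all genes) and 5 higher at an unadjusted p under 0.05 (2.32% of all genes). These fish share no library with the untrained males. The medians were 0.24 for mitochondrial ribosomal proteins, 0.3 for the TCA cycle and 0.18 for fatty acid oxidation, each below its value in untrained males, and these differences between medians were not tested. Cytosolic ribosomal proteins had 0.3 in trained males and DNA replication 0.11. hmgn1a had a log2 fold change of -1.24 in trained males (adjusted p = 0.233), SPOPL 0.86 (adjusted p = 0.857) and MEN1 0.18 (adjusted p = 1), so none of these 3 passed there. map7b had -0.35 and did not pass either. Its level was 0.123, 0.417 and 0.256 CPM in NF-training and 0.191, 0.193 and 0.237 CPM in OF-training, low in both. Some genes that did not pass in untrained males kept their direction in trained males without overlap. These included EPB41L2 (log2 fold change -1.21), AP3M1 (-1.01), ADSL (0.92) and HSD3B7 (1.72). Their edgeR adjusted p in trained males was 0.361, 0.696, 0.369 and 0.983. For oxct1b, ube2d1b and IGFBP3 the log2 fold change there was 0.09, 0.03 and 0.03. In OF-training male 6, skeletal muscle markers summed to 407 TPM, against 0.358 to 38.2 TPM in the other males.

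**Figure D5:**
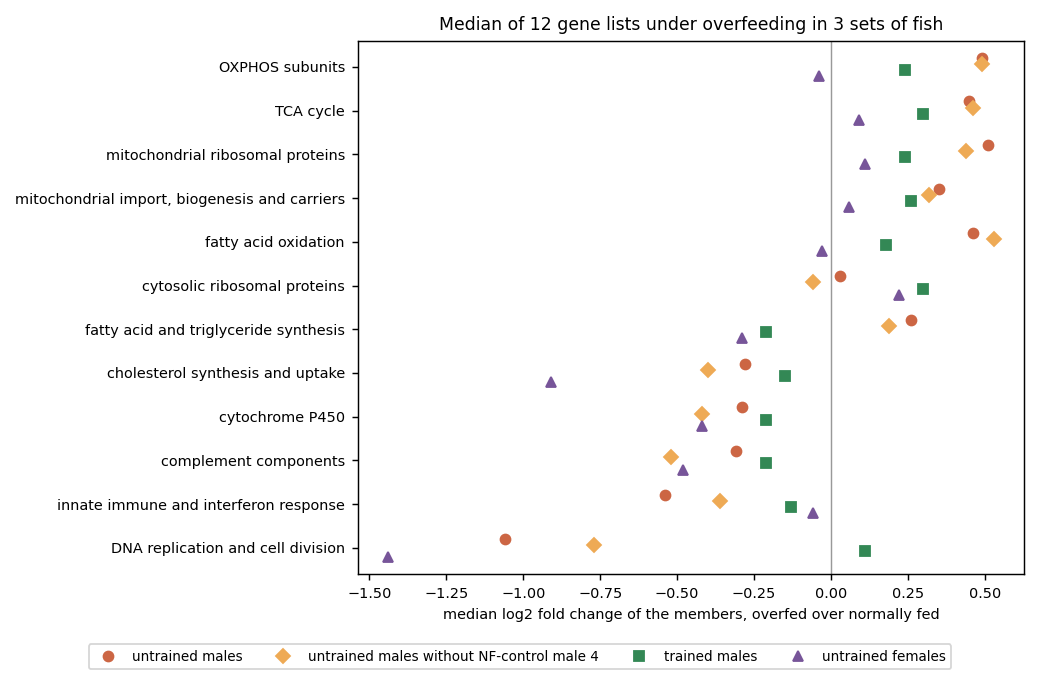
Median log2 fold change with overfeeding of 12 gene lists in untrained males, in untrained males without NF-control male 4, in trained males and in untrained females. The OXPHOS median is 0.49, 0.49, 0.24 and -0.04 in this order.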

How the data were processed

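Livers were sequenced on a BGISEQ-500. The authors checked reads with FastQC, trimmed them with Trim Galore (0.6.4 per the labels) and quantified them with kallisto against GRCz11. The authors deposited unscaled estimated counts and TPM, scaled for length and depth, of 32520 genes, 29201 of which have a symbol here. Of the counts, 64.9% were whole. No pair of fish was identical. Estimated counts were rounded, filtered with filterByExpr (minimum count 10) and scaled by TMM over 24 fish, and contrasts of the 8 cells of group and sex were tested with edgeR's quasi-likelihood test (R 4.3.3, edgeR 4.0.16, 16 residual degrees of freedom). The SE is the size of the log2 fold change divided by the square root of F. The 6 libraries hold 20679862 to 21158766 counts, which sets the precision of low genes.

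The fish compared, the 29 gene lists and 13 marker lists were chosen with earlier results of these data known. Named genes were the 12 higher and 12 lower with the smallest p, a symbol, a mean of at least 2 CPM over the 6 males and groups that did not overlap, and, for the lists described, the 3 most expressed members and up to 4 with the smallest unadjusted p under 0.05. A few genes that this rule picks are not reported. map7b and the genes called without NF-control male 4 are named as calls. Lists are described by counts and medians without a test. In simulated data 17055 genes were tested, of which 100 were given a 2-fold and 100 a 4-fold change in OF-control males. The test found 10 of the former and 74 of the latter, and 8 of its 92 calls were false. The changed genes were drawn only from those above a minimum mean count in these males. Apart from them, all simulated fish of a sex had the same expected levels, so none stood apart like NF-control male 4. These rates therefore need not hold for the real fish.

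Alternatives were other samples in the fit, DESeq2 1.42.0, limma 3.58.1 voom, other scalings and filters, no vitellogenin, limma on log2(TPM + 1) and log2(TPM + 0.1), and each fish left out. Fits of the 12 males, DESeq2 and voom minus NF-control male 4 were added after seeing the data. No coordinates are given, as no genome of the authors' build was used here.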

Additional observations from a re-analysis of the deposited data

Results flagged for a closer look

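The 6 fish of each untrained feeding group, both sexes together, were searched for a fish far from the others by Dixon's ratio (critical value 0.625 for 6 fish) in 76 groups of values, and 16 were found. Chance gives about 1 in 20 for like fish and values not chosen from these data. Each group here pooled females and males, and the marker lists were chosen with earlier results of these data known. The named genes were chosen in these same males for small p and no overlap. That rate therefore does not apply to these values. NF-control male 4 accounted for 10 of the 16. It was the highest fish for the summed stellate and fibroblast markers (424 TPM, next 98.5) and intestine markers (4730 TPM, next 39.1), and for the CPM of FSTL1 (38.1), slc47a4 (2.17), ace (157), NET1 (11), dpp4 (36.5), chia.1 (457), ITPK1 (25.1) and MAF (16.2). NF-control male 5 was the highest for skeletal muscle markers (5.15 TPM) and ARG2 (321 CPM). NF-control female 2 was the highest for PLIN2 (5.12 CPM). OF-control male 1 was the highest for leukocyte markers (513 TPM), skeletal muscle markers (1.72 TPM) and NET1 (1.34 CPM).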

How the results depend on the processing

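The number of genes called for overfeeding in untrained males (4) depended on the fit. It was 4 with median-of-ratios size factors, a mean of at least 10 counts or vitellogenin left out, and 6 with no filter. It was 0 in the 6 untrained males alone, in the 12 males alone, with library size alone and with limma on log2(TPM + 0.1) (1844, 2755, 1117 and 1410 genes at an unadjusted p under 0.05), 271 with DESeq2, 25 with limma voom and 21 with limma on log2(TPM + 1). Without each of the 6 fish in turn it ranged from 0 to 283, the highest without NF-control male 5. Minus NF-control male 4, it was 2 in the 12 males, 131 with DESeq2 and 39 with voom. The cause of these differences was not tested. SPOPL, MEN1, hmgn1a and map7b kept their direction in all of these fits. The median of all genes moved to -0.12 with library size alone and to -0.13 on log2(TPM + 0.1), and the OXPHOS median was 0.37 in both. Of the alternative values of list medians, 563 lay within the spread between fish and 17 did not.

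In untrained females DESeq2 called 10 genes and leaving out fish gave 0 to 1. For males against females DESeq2 called 20, and leaving out each untrained male gave 0 throughout. In trained males the count of 19 became 0 in the 12 males alone, 38 with DESeq2, 3 with voom, 5 with a mean of at least 10 counts and 0 to 20 when a fish was left out. For untrained against trained males, DESeq2 called 15, library size alone 2, no filter 2, and leaving out fish gave 0 to 1. Untrained males of the 2 groups share no replicate number, so no paired fit was possible there. In trained males, same-numbered fish correlated at 0.14, -0.13 and -0.04, and the replicate block gave 15 calls, 12 of them shared.

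Signs of log2 fold changes turned for small or single-fish values. RPL3 was -0.01 in the 6 and in the 12 males, 0 with voom, -0.09 with library size alone and -0.14 on TPM. RPLP0 was -0.02 in the 6 and in the 12 males, with DESeq2 and with median-of-ratios factors, 0 with voom, -0.11 with library size alone, -0.01 with vitellogenin left out and -0.14 on TPM. abcc2 was -0.01 in the 6 and in the 12 males and with voom, -0.09 with library size alone and -0.15 on TPM. ACADM and atp5mc3b were -0.01 on TPM, and gpx4a was 0.02 with voom. The fitted value of apoa4a, which depends on the prior count, was 4.32 with voom, 1.35 on log2(TPM + 1) and 3.42 on log2(TPM + 0.1). Minus NF-control male 4, in the 12 males, with DESeq2 and with voom, the values were 10.07, 9.56 and 8.05 for apoa4a, 0.84, 0.86 and 0.86 for abcb11a, 1.36, 1.39 and 0.71 for gpx1b, -0.12, -0.11 and -0.05 for BHMT, 0.04, 0.05 and 0.06 for b2ml, -0.12, -0.11 and -0.13 for RPL3, and -0.15, -0.13 and -0.14 for RPLP0. IGFALS was -0.02 in the 12 males and -0.01 with DESeq2, ACSL5 0.65 with DESeq2 and voom, and ACACA 0.09 with voom.

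When each fish was left out in turn, the sign turned for the following genes. ACSL5 ran from -7.77 to 0.65, abcb11a from -2.93 to 0.87, gpx1b from -5.45 to 1.38, apoa4a from -0.9 to 9.52, igfbp1b from -3.52 to 0.21, SCD from -7.78 to 0.94 and thrsp from -3.7 to 0.72. ACACA ran from -0.54 to 0.27, GYS2 from -0.81 to 0.06, pgm1 from -1.35 to 0.09, TM7SF2 from -0.44 to 0.17, BHMT from -0.1 to 0.58, abcc2 from -0.15 to 0.27 and gpx4a from -0.29 to 0.22. The others were c3a.1 (-0.42 to 0.32), BHLHE40 (-0.38 to 0.15), hpda (-0.4 to 0.11), MDH1 (-0.33 to 0.03), PDIA3 (-0.33 to 0.1), RPL3 (-0.19 to 0.21), RPLP0 (-0.16 to 0.17), b2ml (-0.13 to 0.08), RPS2 (-0.12 to 0.07), ACADM (-0.01 to 0.3) and CAT (-0.03 to 0.28).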

Other observations

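The remaining gene lists gave these values in untrained males. Of 19 cytosolic aminoacyl-tRNA synthetases, which load amino acids for translation, 17 had a log2 fold change above 0 with a median of 0.42, 5 were higher without overlap (9.32% of all genes), and the median was 0.37 without NF-control male 4. Of 58 proteasome subunits tested, 42 were above 0 (median 0.26), with 13 higher (9.32%) and 2 lower (8.09%) without overlap. Targets of the amino acid response had a median of 0.27 over 23 genes. Conjugating enzymes had a median of -0.21 over 62 genes, iron handling -0.1 over 18, ribosome biogenesis 0.03 over 90, apolipoproteins -0.01 over 27 and acute phase and clotting proteins -0.02 over 39. No member of these lists passed with edgeR except apoa4a without NF-control male 4.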
